A study of Homo sapiens with 4 samples.

Results

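The S100 genes encode small calcium-binding proteins, and the 10 described here are S100A8, S100A9, S100A7, S100A12, S100A2, S100A6, S100A10, S100A11, S100A16 and S100P. They were taken as the transcript clusters, the units an array value stands for, whose platform annotation gives the symbol of a chosen family member. All 10 were found, each on 1 cluster with no other symbol, among 18417 genes measured on single-symbol clusters. The members were chosen by their family and with the log2 differences of the contrast below already known, in which S100A8 stood out. Those values are therefore given as a description without a test, and limma tests are used for genes outside the group.

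The arrays came from the human ovarian carcinoma cell line OVCAR-3. Expression was measured on 2 arrays from cells labelled as overexpressing human H1.3, a linker histone, and on 2 arrays from cells transfected with the vector without H1.3. All 4 are the same line in the same medium. The labels call the replicates biological but do not say whether they came from separate transfections or clones, which promoter drove H1.3, or what the (H) in the H1.3 titles stands for, so a p-value covers only the spread among these 4 arrays.

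S100 proteins mostly work as pairs, and each chain carries 2 calcium-binding EF-hands. S100A8 and S100A9 pair to form calprotectin, which is abundant in neutrophils and monocytes and is also made by stressed or inflamed epithelium. Calprotectin withholds zinc and manganese from microbes and, outside the cell, signals through the receptors TLR4 and RAGE. Other members act inside epithelial cells, for example S100A10 and S100A11 as partners of annexins. Most S100 genes lie close together on chromosome 1, among genes for the skin barrier, whereas S100P lies on chromosome 4.

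H1-3, the gene for H1.3, measured 7.47 and 7.69 on the arrays labelled H1.3, against 8.65 and 7.88 on the vector-only arrays, on the log2 scale used throughout. It was thus not higher in the arrays that carry its name (difference -0.69 ± 0.24 SE, limma adjusted p 0.319), and all directions below follow the labels. Of 13 ovarian carcinoma genes, 12 had a mean at or above the median level of the named clusters, and FOLR1 lay below it. Differences were negative for 9 of the 13 and positive for 3. PAX8 and MUC16, given here as a check of the tissue, are among the positive ones. PAX8 measured 11.20 and 11.12 on the arrays labelled H1.3 and 11.09 and 10.97 on the vector-only arrays. MUC16, which encodes CA-125, measured 10.24 and 10.80 on the arrays labelled H1.3 and 10.21 and 10.82 on the vector-only arrays. Of 21214 named clusters, 107 (0.504%) passed limma at an adjusted p under 0.05, 51 higher (0.240%) and 56 lower (0.264%).

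The calprotectin subunits were the members with the highest differences. S100A8, the smaller subunit, measured 9.52 and 8.19 on the arrays labelled H1.3, against 6.32 and 6.16 on the vector-only arrays. S100A9, the larger subunit, measured 7.94 and 7.44 on the arrays labelled H1.3, against 6.58 and 6.59 on the vector-only arrays. For both genes the groups did not overlap, and H1.3 replicate 1 was the higher of its pair.

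The difference, arrays labelled H1.3 minus vector-only, was 2.62 ± 0.37 (SE, n = 2 each) for S100A8 and 1.11 ± 0.17 (SE, n = 2 each) for S100A9. On the linear scale this is 6.13-fold for S100A8 and 2.15-fold for S100A9. Between the arrays labelled H1.3, S100A8 still differed by 1.33 and S100A9 by 0.50, whereas the vector-only replicates differed by 0.16 for S100A8. Leaving out each array in turn gave 1.95 to 3.28 for S100A8 and 0.86 to 1.36 for S100A9. In a whole culture, a larger share of cells making a transcript and more of it per cell cannot be told apart.

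**Figure D1:**
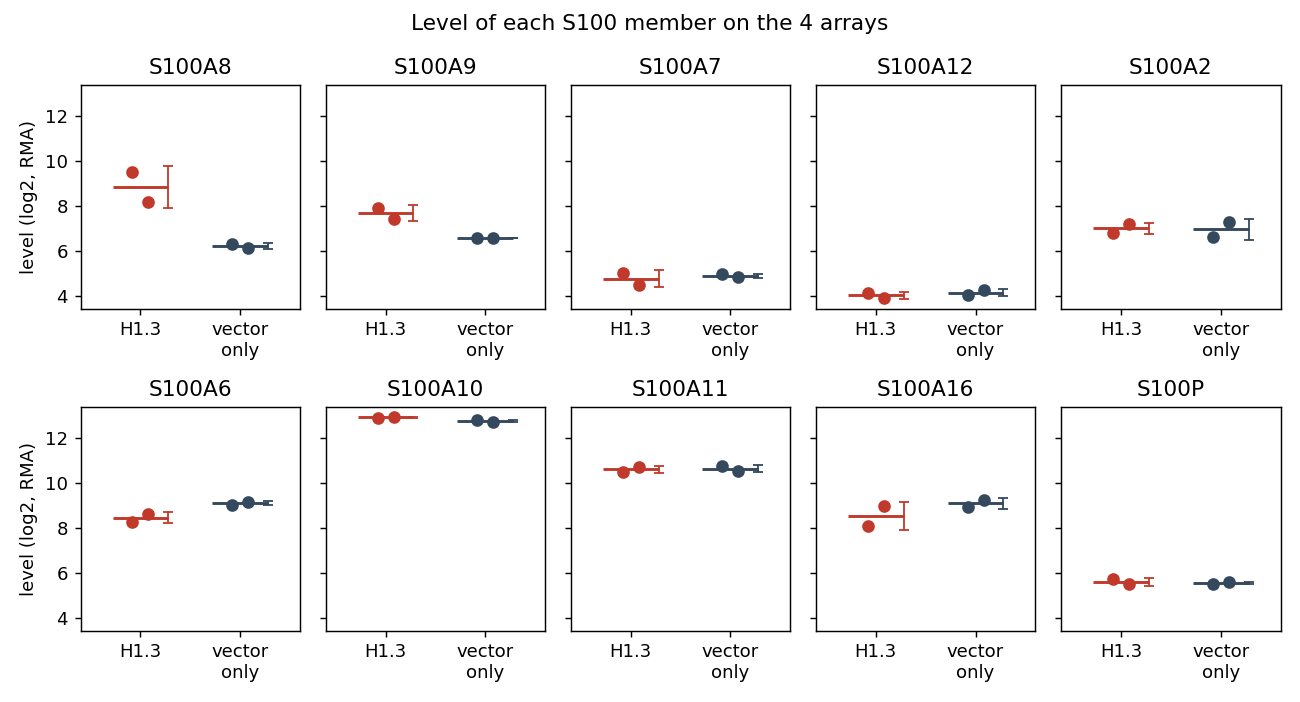
Level (log2 of RMA values) of the 10 members, with 1 point per array, the mean as a horizontal line and the SD (n = 2) as the bar beside it. S100A8 and S100A9 sit higher on the arrays labelled H1.3, while the remaining members differ by -0.66 to 0.17.

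S100A12, the third S100 protein typical of neutrophils, lies between S100A9 and S100A8 in the gene order of chromosome 1. It measured 4.14 and 3.94 on the arrays labelled H1.3, against 4.06 and 4.28 on the vector-only arrays, so the groups overlapped and the difference was -0.13 ± 0.14 (SE). Its mean level lay at the 10.2th percentile of the named clusters, so a change of S100A12 may not have been detectable. S100A7, or psoriasin, an antimicrobial protein of keratinocytes, was also dim. It measured 5.05 and 4.51 on the arrays labelled H1.3, against 4.98 and 4.84 on the vector-only arrays, again with overlap. Its difference was -0.13 ± 0.19 (SE). S100A7 has close relatives, S100A7A and S100A7L2, with which its probes may share signal, and the RefSeq promoter windows of S100A7 and S100A7A are identical at 289 of 300 positions.

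The start regions of the 2 calprotectin genes and of S100A12 are shown because they are neighbours whose measured differences ran from -0.13 to 2.62. The windows run from 250 bases before to 50 bases after the annotated start, are taken from RefSeq on GRCh38.p14 and are written 5′ to 3′ on the strand of the gene. S100A8 has 3 annotated starts, and the one shown has the sequence TATAAA nearest to 30 bases before it. Its window is chr1:153391024-153391323, minus strand, that of S100A9 is chr1:153357604-153357903, plus strand, and that of S100A12 is chr1:153375572-153375871, minus strand. Capitals mark matches, on either strand, to 5 motifs. The promoter box motif was TATAAA. For the factor AP-1 the motif was TGANTCA. For STAT factors it was TTCNNNGAA. For C/EBP factors it was TTNNGNAA. The last motif was the NF-kB consensus.
S100A8: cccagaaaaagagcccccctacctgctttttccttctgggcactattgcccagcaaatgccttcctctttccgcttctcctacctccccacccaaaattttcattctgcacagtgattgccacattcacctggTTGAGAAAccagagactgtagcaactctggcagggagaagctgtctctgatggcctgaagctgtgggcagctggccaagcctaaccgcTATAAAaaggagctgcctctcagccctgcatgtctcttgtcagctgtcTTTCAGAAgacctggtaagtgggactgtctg
S100A9: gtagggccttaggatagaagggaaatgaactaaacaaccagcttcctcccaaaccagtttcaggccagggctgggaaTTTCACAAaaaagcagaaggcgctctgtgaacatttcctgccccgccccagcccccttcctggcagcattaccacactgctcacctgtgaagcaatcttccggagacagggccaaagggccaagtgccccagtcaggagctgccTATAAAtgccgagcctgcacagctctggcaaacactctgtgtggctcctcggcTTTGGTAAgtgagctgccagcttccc
S100A12: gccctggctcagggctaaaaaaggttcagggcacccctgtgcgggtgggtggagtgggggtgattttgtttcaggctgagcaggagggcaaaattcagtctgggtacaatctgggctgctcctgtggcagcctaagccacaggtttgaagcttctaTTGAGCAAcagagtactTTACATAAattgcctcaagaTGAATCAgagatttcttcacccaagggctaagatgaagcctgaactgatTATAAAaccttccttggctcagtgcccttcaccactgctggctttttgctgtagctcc
TATAAA begins at position -29 in both S100A8 and S100A9, counting the annotated start as 0, and at -8 in S100A12. The S100A8 start was picked by this distance, so its position is no finding. For the other 2 starts of S100A8, TATAAA begins at -126 in 1 window and is missing from the other. Each of the 3 windows shown holds 2 matches to the C/EBP letters, and no match overlaps TATAAA. The AP-1 letters occur in the S100A12 window alone of the 3, at position -57.

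Windows were available for all 10 members, 14 in all. The windows of S100A8 overlap, so the same stretch can be counted more than once, and the 14 are not independent units. TATAAA was found in 6 of the 14, from the 5 members S100A7, S100A8, S100A9, S100A12 and S100P, and in 11.5% of 35116 RefSeq windows. C/EBP letters were found in 9 of the 14, from 7 members, and in 36.8% of all windows. AP-1 letters occurred in 2 of the 14, one each of S100A2 and S100A12, and in 7.71% of all windows. STAT and NF-kB letters occurred in 0 member windows, against 7.66% and 5.91% of all windows. TATAAA thus occurs both in members with a large difference and in members with a small one, and a match of letters says nothing about binding.

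S100A6 (calcyclin), which binds annexins and the ubiquitin-ligase adaptor CACYBP, had the lowest difference. It measured 8.29 and 8.63 on the arrays labelled H1.3, against 9.05 and 9.18 on the vector-only arrays. The groups did not overlap, and the difference was -0.66 ± 0.15 (SE), with -0.83 to -0.49 when each array was left out. S100A16, a broadly expressed member, measured 8.11 and 8.97 on the arrays labelled H1.3, against 8.93 and 9.27 on the vector-only arrays. Here only H1.3 replicate 1 lay below both vector-only arrays. The difference of -0.56 ± 0.27 (SE) was -0.13 without H1.3 replicate 1 and -0.99 without H1.3 replicate 2.

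S100A10, or p11, the partner of annexin A2, was bright on every array. It measured 12.90 and 12.94 on the arrays labelled H1.3, against 12.79 and 12.72 on the vector-only arrays, without overlap but with a difference of only 0.17 ± 0.11 (SE). S100A11, a partner of annexin A1, measured 10.50 and 10.72 on the arrays labelled H1.3, against 10.75 and 10.53 on the vector-only arrays. Both groups covered the same range, and the difference was -0.03 ± 0.14 (SE).

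S100A2, a nuclear member found in basal epithelial cells, measured 6.84 and 7.20 on the arrays labelled H1.3, against 6.64 and 7.31 on the vector-only arrays. The vector-only values enclosed the others, with a difference of 0.05 ± 0.23 (SE). S100P, which is raised in several carcinomas, measured 5.75 and 5.50 on the arrays labelled H1.3, against 5.52 and 5.60 on the vector-only arrays. These groups also overlapped, and the difference was 0.07 ± 0.13 (SE).

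Seen together, the calprotectin subunits had a mean difference of 1.86 and the other 8 members a median of -0.08, from -0.66 to 0.17. The gap between them was 1.94. Per array, as deviation from the vector-only mean of the same gene, it was 2.40 on H1.3 replicate 1 and 1.50 on H1.3 replicate 2, against 0.09 and -0.09 on the vector-only arrays. The vector-only values mirror each other by construction, because their own mean is the reference. With 2 arrays against 2, an exact permutation test cannot go below a two-sided p of 0.333, and no test was made because this gap was known when the members were chosen.

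The groups did not overlap for 4 members, 3 with the arrays labelled H1.3 above and 1 with them below, and 6 overlapped. Over all named clusters 40.6% did not overlap, 21.2% with the arrays labelled H1.3 above and 19.4% with them below. One member (1 of 10), S100A8, met the limma threshold, as a higher value, and 0 as a lower one, beside 0.504% of all named clusters (0.240% higher, 0.264% lower), and nothing is read from that count. Every call, that of S100A8 included, was lost in a fit with a term for the replicate number and in each fit without 1 array. The members split evenly by sign, 5 positive and 5 negative, whereas 53.5% of all named clusters were positive. By level, 7 of the 10 had a mean at or above the median named cluster, 6.84, and S100A7, S100A12 and S100P were below it.

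H1.3 replicate 1 lay farther from the vector-only mean than H1.3 replicate 2 for both calprotectin subunits and for S100A6 and S100A16. In all this held for 6 of 10 members and for 58.5% of the named clusters. The median absolute difference between the arrays labelled H1.3 was 0.15 over named clusters, against 0.13 between the vector-only arrays. The part of this array in the results was not tested beyond the values without it.

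**Figure D2:**
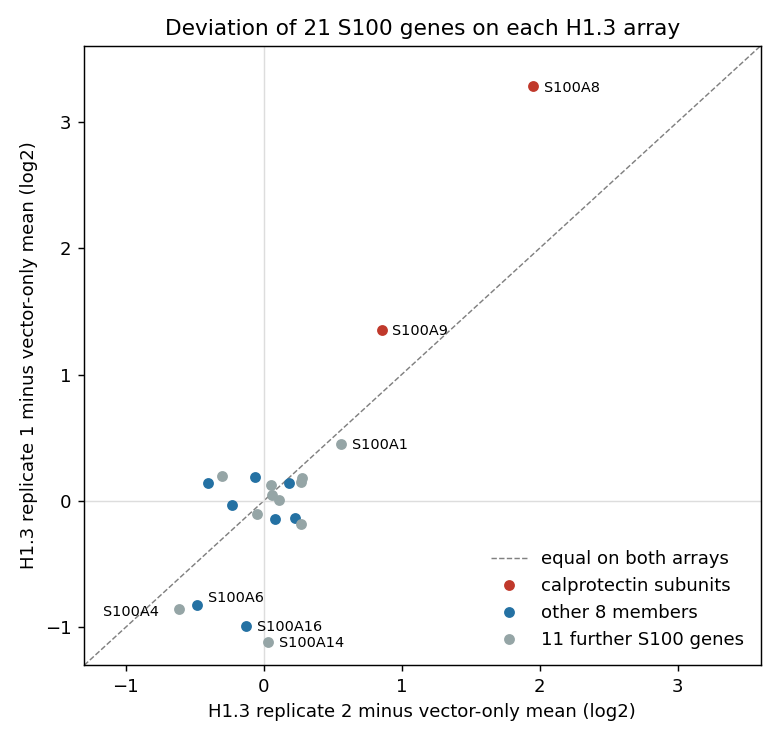
Deviation of each S100 gene from its vector-only mean (log2) on H1.3 replicate 1 (vertical axis) and on H1.3 replicate 2 (horizontal axis), with 1 point per gene and a dashed line where both are equal. S100A8 lies at 3.28 and S100A9 at 1.36 on replicate 1, against 1.95 and 0.86 on replicate 2.

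The other 11 family members that were measured, which are outside the group, did not pass limma (0 of 11 called). At an unadjusted p under 0.05, 1 was higher and 1 lower, beside 5.21% and 6.34% of all named clusters. Their median difference was 0.06, against 0.02 over all named clusters. S100A4, a cytoplasmic protein linked to cell motility and metastasis, measured 7.39 and 7.63 on the arrays labelled H1.3, against 8.18 and 8.31 on the vector-only arrays. Its groups did not overlap, and the difference of -0.74 ± 0.13 (SE) had a limma adjusted p of 0.0821. With a robust intensity trend in limma, S100A4 alone of the 11 passed (adjusted p 0.0414).

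S100A1, best known from heart muscle, measured 6.71 and 6.82 on the arrays labelled H1.3, against 6.23 and 6.29 on the vector-only arrays. This difference of 0.51 ± 0.12 (SE) had a limma adjusted p of 0.134. S100A14, the neighbour of S100A16, measured 7.85 and 9.0 on the arrays labelled H1.3, against 8.71 and 9.22 on the vector-only arrays. As with S100A16, only H1.3 replicate 1 lay below both vector-only arrays. For both genes replicate 1 was also the lower array within each group. The S100A14 difference of -0.54 ± 0.35 (SE) was 0.04 on H1.3 replicate 2 alone and -1.12 on H1.3 replicate 1 alone. The remaining differences were 0.23 for S100A5, 0.21 for S100A13, 0.09 for S100A3, 0.06 for S100A7L2, 0.06 for S100G, 0.05 for S100B, -0.06 for S100A7A and -0.08 for S100Z.

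The neighbours of the calprotectin pair were read in the same way. In the RefSeq gene order, the 4 nearest measured genes on one side were the peptidoglycan recognition genes PGLYRP4 (0.05) and PGLYRP3 (-0.04), the cornified envelope gene LORICRIN (0.11) and LELP1 (-0.02). On the other side were S100A7A, S100A7L2, S100A7 and S100A6, given above. Of the 6 neighbours outside the group, limma called 0 and 0 had an unadjusted p under 0.05, beside 11.5% of all named clusters. All 6 lay below the median level, and their differences ran from -0.06 to 0.11.

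Across the whole run from S100A10 to S100A1, 60 genes were measured, 18 of them at or above the median level. The 43 that are not S100 genes had a median difference of 0.04, from -0.42 to 1.78. FLG, which encodes filaggrin, was the 1 of them that limma called, beside 0.504% of all named clusters. It rose to 12 and 11.3 on the arrays labelled H1.3, against 9.89 and 9.85 on the vector-only arrays. Gene order alone was used here, because no source names the genome build behind the array annotation.

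**Figure D3:**
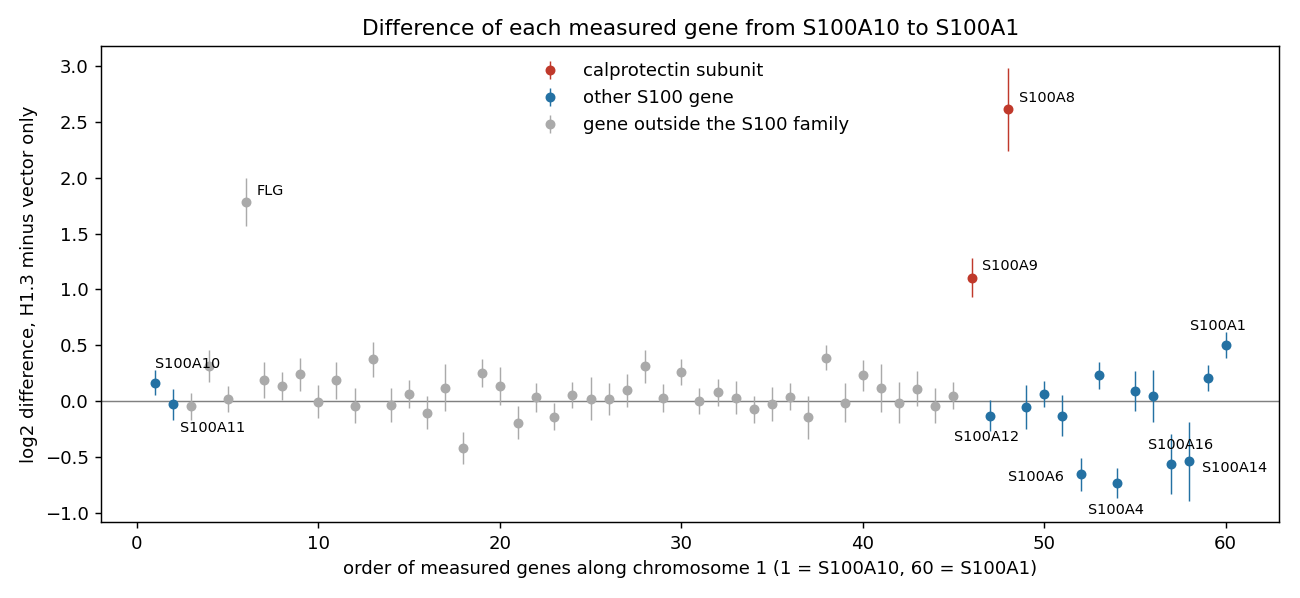
Log2 difference (arrays labelled H1.3 minus vector-only) of the 60 measured genes from S100A10 to S100A1 in their order along chromosome 1, with bars for the SE of the limma fit (n = 2 each). S100A8, FLG and S100A9 stand at 2.62, 1.78 and 1.11, and S100A12, between the calprotectin genes, at -0.13.

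FLG belongs with the S100-fused genes, whose long proteins start with an S100-like domain. It rose by 1.78 ± 0.22 (SE, n = 2 each, limma adjusted p 0.0302), and its groups did not overlap. The other 5 of the 6 measured were not called: TCHH, trichohyalin, differed by 0.32, FLG2 by 0.19, CRNN by 0.14, RPTN by 0.02 and TCHHL1 by -0.05. The median was 0.16, and the 1 call in 6 stood beside 0.504% of all named clusters. FLG was lost with all transcript clusters tested (limma adjusted p 0.189) and with only clusters at or above the median level tested (0.0565). Its call was also lost when any 1 array was left out, as was every other call. That loss is therefore not particular to FLG.

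Of all genes, FLG was also the one whose profile over the 4 arrays was closest to the mean profile of S100A8 and S100A9. The measure was the Euclidean distance after centring each gene on its own mean, in log2 units, and it was 0.17 for FLG. Next came HLA-DPA1, an MHC class II chain (0.27), the olfactory receptor gene OR7D2 (0.36), the GABA-B receptor gene GABBR2 (0.44) and the glutamate receptor gene GRIA4 (0.47). Profiles were not scaled, so genes with a difference near 1.86, the mean of the pair, come first. The pair itself differed by 2.62 for S100A8 and 1.11 for S100A9. With 4 arrays this is a description only, and it does not show that FLG follows either subunit.

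Epithelial genes for antimicrobial proteins and alarm signals, which often accompany calprotectin, included 1 called gene among 16 measured, beside 0.504% of all named clusters. PI3, or elafin, an elastase inhibitor of epithelial surfaces, rose to 8.33 and 7.95 on the arrays labelled H1.3, against 7.07 and 7.14 on the vector-only arrays. The difference was 1.04 ± 0.15 (SE, n = 2 each, limma adjusted p 0.0477). It lost its call with arrays at one median (limma adjusted p 0.0549) and with all transcript clusters tested (0.216). The call was also lost with only clusters at or above the median level tested (limma adjusted p 0.0705). When any 1 array was left out, every call was lost, not that of PI3 alone. The list's median difference was 0.18. At an unadjusted limma p under 0.05, 5 genes were higher and 0 lower, beside 5.21% and 6.34% of all named clusters. The list was chosen with earlier results of these data known, so nothing is read from these counts.

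The 15 genes of this list that were not called included several with differences like that of PI3, picked out after their values were seen. LCN2, the siderophore-binding lipocalin 2, measured 10.37 and 9.76 on the arrays labelled H1.3, against 8.58 and 9.11 on the vector-only arrays (limma adjusted p 0.0951). CXCL8, the neutrophil chemokine interleukin 8, measured 8.68 and 8.12 on the arrays labelled H1.3, against 7.29 and 7.49 on the vector-only arrays (limma adjusted p 0.0922). In each of PI3, LCN2 and CXCL8 the groups did not overlap and H1.3 replicate 1 was the highest array, as for the calprotectin subunits. Over the 16 genes, the groups did not overlap for 7 with the arrays labelled H1.3 above and for 1 below. Over all named clusters these shares were 21.2% and 19.4%. Differences were positive for 11 of the 16 and negative for 5, and nothing is read from the picked genes. SLPI, another secreted protease inhibitor, differed by -0.11 and CCL20, an epithelial chemokine, by 0.29.

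Genes for cytokines, receptors and transcription factors known to induce calprotectin had 0 of 25 called by limma, beside 0.504% of all named clusters. At an unadjusted p under 0.05, 2 were higher and 1 lower, beside 5.21% and 6.34% of all named clusters. The list's median difference was 0.11. IL6ST, the shared receptor chain gp130, measured 8.82 and 8.97 on the arrays labelled H1.3, against 8.23 and 8.18 on the vector-only arrays, a difference of 0.69 ± 0.12 (SE, limma adjusted p 0.0795). IL6 itself was dim, at 5.49 and 5.25 on the arrays labelled H1.3, against 4.54 and 4.81 on the vector-only arrays, a difference of 0.70 ± 0.15 (SE, limma adjusted p 0.111). With a robust intensity trend, IL6ST passed.

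Receptors and binding partners of S100 proteins had 0 of 18 called by limma and 1 at an unadjusted p under 0.05. Over all named clusters these shares were 0.504% and 11.5%. The list's median difference was 0.04. ALCAM, a cell adhesion molecule, measured 10.16 and 10.20 on the arrays labelled H1.3, against 9.93 and 8.67 on the vector-only arrays, with vector-only replicate 2 the low array (0.88 ± 0.35 SE, limma adjusted p 0.399). CD36, a scavenger receptor, differed by 0.33 (limma adjusted p 0.485) and was dim on all arrays.

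Other EF-hand genes outside the S100 family had 0 of 18 called by limma, with a median of -0.03. At an unadjusted p under 0.05, 0 were higher and 2 lower, beside 5.21% and 6.34% of all named clusters. EFHD2, or swiprosin 1, differed by -0.42 ± 0.11 (SE, limma adjusted p 0.184) and RCN2, reticulocalbin 2, by -0.31 ± 0.12 (SE, limma adjusted p 0.375).

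Markers of cells that normally make much calprotectin were measured beside it. Of 17 myeloid markers limma called 0, with 1 higher at an unadjusted p under 0.05, beside 5.21% of all named clusters. The median difference of the 17 was 0.05. The mean level of the list was 5.31 and 5.17 on the arrays labelled H1.3, against 5.14 and 5.23 on the vector-only arrays, and 15 of the 17 lay below the median named cluster. PTPRC, the leukocyte antigen CD45, measured 3.38 and 3.40 on the arrays labelled H1.3, against 3.13 and 3.19 on the vector-only arrays (limma adjusted p 0.516). FCER1G differed by 0.31 ± 0.11 (SE, limma adjusted p 0.350). RMA values have no true 0, so a low level here cannot be read as absence.

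Of 20 squamous differentiation genes limma called 0, with 0 at an unadjusted p under 0.05, beside 11.5% of all named clusters. The median difference of the 20 was 0.02. FLG and PI3, which limma called, were counted in other lists and not in this one. KRT6A, KRT17 and TP63 belong to the list but had no single-symbol cluster. The list's mean level was 5.37 and 5.28 on the arrays labelled H1.3, against 5.29 and 5.30 on the vector-only arrays, and 18 of the 20 lay below the median named cluster. TGM3, an epidermal transglutaminase, differed by 0.16 and SFN, the 14-3-3 sigma protein, by 0.22, with limma adjusted p of 0.674 and 0.677.

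Among 13 ovarian carcinoma genes 2 fell and 0 rose in limma, beside 0.264% and 0.240% of all named clusters. The median difference of the 13 was -0.25. MECOM fell by 1.58 and FOLR1 fell by 1.26 (limma adjusted p 0.0266 and 0.0291). Both were lost with all transcript clusters tested (limma adjusted p 0.172 for MECOM and 0.176 for FOLR1). They were also lost when any 1 array was left out, as was every other call. MECOM has 2 clusters, of which the brighter is used here, and with their mean it lost its call (limma adjusted p 0.125). As arrays were left out in turn, the median ran from -0.47, without vector-only replicate 2, to -0.10. These genes and the calprotectin subunits differed on the same arrays, and their part in the S100 differences was not tested.

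**Figure D4:**
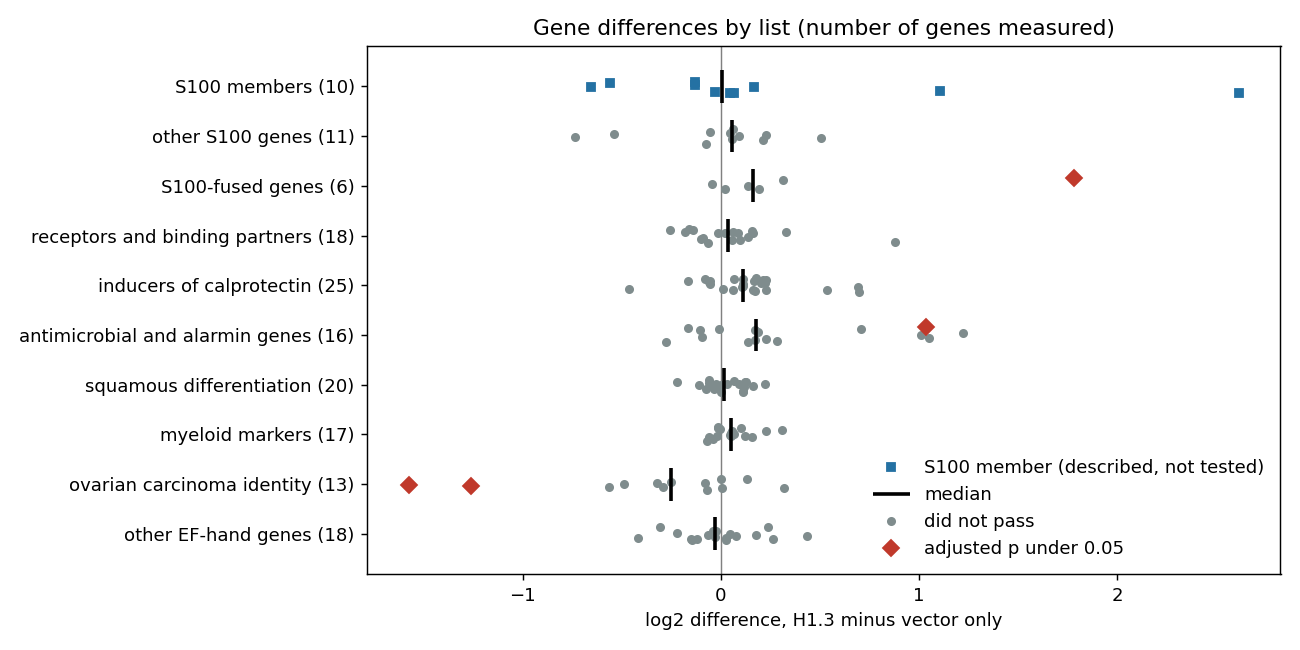
Log2 difference (arrays labelled H1.3 minus vector-only) of each measured gene in the S100 group and the 9 lists, with 1 point per gene, diamonds for genes at a limma adjusted p under 0.05, squares for the S100 members and a vertical bar for the median. The members spread from -0.66 to 2.62, while the squamous and myeloid genes stay between -0.22 and 0.31.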

How the data were processed

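The authors deposited log2 values, 1 per transcript cluster and array, for 33297 clusters to 2 decimals. Per the submitters' processing notes the tools were RMA and Affymetrix Expression Console, without versions. RMA in general subtracts background, equalises array distributions and summarises several probes, so single probes and background could not be examined. Array medians lay between 6.21 and 6.27. Symbols came from the platform annotation, updated by gene identifier to RefSeq (GRCh38.p14).

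The members and gene lists were chosen with earlier results of these data known. The arrays labelled H1.3 and the vector-only arrays, 2 each, were compared over 21214 named clusters, by limma 3.58.1 (lmFit and eBayes, two-sided, R 4.3.3), with Benjamini-Hochberg adjustment over all of them and a threshold of 0.05. The number of arrays limits the precision: the median SE was 0.13. The rule for named genes took the members, H1-3, the other S100 genes, up to 4 called genes per list or the 2 of smallest p, the 4 nearest genes on each side and the 5 closest profiles. Outside it, PAX8 and MUC16 are named as a check of the tissue and the uncalled S100-fused genes to complete that list, and LCN2, CXCL8, SLPI and CCL20 after their values were seen. Of several clusters for 1 gene, that with the highest mean was used. On simulated data for this comparison over 21214 clusters, 76.8% of 2-fold and 99.0% of 4-fold changes were called, with 6 false calls. The simulation changed 99 clusters 2-fold and 101 clusters 4-fold, with independent normal values and a spread drawn from limma's own fitted prior. It met the assumptions of the fit by construction, so its shares need not hold for the real arrays. Alternatives changed the array scaling, the moderation, the clusters tested and the arrays used. Figures were drawn with matplotlib 3.10.9. Same-numbered replicates deviated together only weakly (r = 0.06 over clusters) and no label ties them to a common batch, so arrays were treated as unpaired.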

Additional observations from a re-analysis of the deposited data

How the results depend on the processing

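The gap between the calprotectin subunits and the other members, 1.94, was 1.50 to 2.40 in the fits without each array, and 5 members were positive in each of them. Among single members without a call, S100A11 (-0.14 to 0.08), S100A2 (-0.29 to 0.38), S100A7 (-0.40 to 0.14) and S100P (-0.06 to 0.19) took both signs in those fits. The clusters called higher and lower were 51 and 56 and became 19 and 31 with arrays at one median, 107 and 138 with a robust intensity trend, 6 and 19 when only clusters at or above the median level were tested, and 1 and 3 when unnamed clusters were added. The 4 called genes of the lists (FLG, PI3, MECOM and FOLR1) became 7 with the robust trend, 1 without the dim clusters and 0 with the unnamed ones. Leaving out each array gave 0 to 0 for all 3 counts in limma. There 1292 to 2367 clusters had an unadjusted p under 0.05, and the single array of a group was assumed to vary as the other pair did. Under the mean over the clusters of a gene, MECOM lost its call (adjusted p 0.125). The cause of these shifts was not tested.

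When the fit held a replicate block, limma called 0 clusters higher and 0 lower (unadjusted p under 0.05 for 2195), 0 list genes were called (adjusted p 0.164 for FLG, 0.206 for PI3, 0.164 for MECOM and 0.137 for FOLR1), and the calprotectin gap was 1.94. S100A12 and S100A7 were among the dimmer members, and without background values the smallest change detectable for them could not be given.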
